A study of Arabidopsis thaliana with 8 samples.

Results

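The comparison is that of leaves of the transgenic Arabidopsis thaliana line M6PR with leaves of the wild type Col when both were given 100 mM NaCl. It rests on 4 of the 8 arrays of the series, the 2 salted M6PR arrays and the 2 salted Col arrays, chosen by their titles. The other 4 arrays, 2 of M6PR and 2 of Col without added NaCl, entered the estimate of the spread and show how the lines differed without salt. M6PR plants carry mannose-6-phosphate reductase, a celery enzyme, and the series title describes them as producing mannitol and tolerating salt. In GEO's sample descriptions the M6PR arrays carry the accession name Ws, not Col, so the transgene and the accession cannot be told apart in any value below. The Col arrays were also deposited in another series, and a difference in handling between the lines' arrays cannot be told apart from the line either. Both lines were grown in days of 10 h of light, salt was started 14 days after sowing and raised by 50 mM every 2 days, and leaves were taken at 20 days, 6 days into the treatment. Each array holds RNA pooled from leaves of at least 15 seedlings of 1 replicate pot. The promoter of the transgene and the number of independent transformants are not given in the sources used here, and the transgene's own transcript was not analysed here.

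Mannitol is a sugar alcohol that celery makes in its leaves through mannose-6-phosphate reductase, which turns mannose 6-phosphate into mannitol 1-phosphate. It is known as a compatible solute, a small molecule that balances the osmotic pressure of salt without disturbing proteins, and as a scavenger of hydroxyl radicals. Salt in the soil withholds water from a leaf and loads it with sodium. Leaves of Arabidopsis are known to respond with abscisic acid signalling, protective proteins of the late embryogenesis abundant family, calcium and defence signalling, and slower growth.

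The values are log2 intensities, 1 per probe set (the group of oligonucleotides on the array that reports a transcript) and array. A total of 22746 probe sets were tested after the 64 array controls were left out. The deposited values end at a floor of 2.15, and between 27.9% and 29.2% of the probe sets of an array lie at it. With the values in view, log2 4 was set as the background level, and 13240 probe sets, of which 7081 report 1 gene, lay above it in at least 1 salted group. Where the dimmer line lay below log2 4, the fold was computed against that level and is written as "at least". At that limit PLIM2b, with 3.87 and 4.0 in M6PR and 4.0 on both Col arrays, lay just below, and AT3G27640, with 2.81 and 2.98 in M6PR and 4.55 and 3.45 in Col, just above. Precision is limited by having 2 arrays a group, and in pooled leaves fewer cells of a type and less RNA per cell cannot be told apart.

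The 2 salted M6PR arrays were not alike. Across probe sets, replicate 1 had its highest correlation with replicate 1 of unsalted M6PR (r 0.983), and the correlations with its own replicate (0.982) and with both unsalted Col arrays (0.981 each) were nearly as high. Replicate 2 was closest to replicate 2 of salted Col (0.991) and to replicate 2 of unsalted M6PR (0.988). Probe sets are not independent replicates, and these correlations are descriptions. Between replicates the root mean square SD was 0.426 in salted M6PR and 0.404 in salted Col, against 0.248 in unsalted M6PR and 0.172 in unsalted Col. Results below are therefore given array by array, and a line is called separated from the other only where both of its arrays lie on the same side of both arrays of the other line.

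Of 24 leaf markers, the 2 that were measured were at a similar high level on all arrays. RCA, the activase of the carbon-fixing enzyme Rubisco, lay between 14.52 and 14.82 and the antenna protein LHCB4.1 between 14.55 and 14.69. Of the root markers, the 3 that were measured (UPB1, EXPA7 and EXPA18) lay below log2 4 on all 8 arrays, the highest value being 3.42. Of the flower and pollen markers EXPA4, an expansin also used in leaves, was measured above background, at 8.90 and 8.20 in salted M6PR and 8.75 and 8.83 in salted Col. No seed or vascular marker was tied to a probe set of its own by the annotation, which gave no gene for 8730 probe sets.

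Under salt, the lines differed past the threshold (limma, 2-sided, Benjamini-Hochberg adjusted p under 0.05) in 31 probe sets, which is 0.136% of those tested. Of these, 8 (0.0352%) were higher and 23 (0.101%) lower in M6PR (2947 probe sets had an unadjusted p under 0.05). The split depended on the scaling and on single arrays. With all arrays brought to a common median 77 were higher and 62 lower. Leaving out a salted M6PR array gave 79 higher and 28 lower (replicate 1) or 680 and 334 (replicate 2), and leaving out a salted Col array 55 and 311 (replicate 1) or 428 and 784 (replicate 2). In 17 of the 31 both lines lay below log2 4 and no size can be given. The other 14 (0.106% of the 13240 above it) were 6 higher and 8 lower in M6PR, and 6 of them report 1 gene. The 6 genes split evenly into genes that were detected in salted Col alone and genes that were higher in M6PR with or without salt. The groups of this series had unequal spreads (SD above). In simulated data with an equal spread in all groups, 3 of 73 calls were false. Where each probe set took its spread in each group from the 2 arrays of that group, 361 of 484 were false. A spread taken from 2 arrays is itself uncertain, and that simulation gave far more calls than the data. It therefore does not give the share of false calls among the 31.

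The first of the lower genes was UGT76E12, which encodes an enzyme of the family that attaches sugars to small molecules such as hormones and flavonols. It read 6.45 and 6.86 on the salted Col arrays, 2.15 and 2.68 on the salted M6PR arrays and 2.15 on all 4 unsalted arrays. Only the salted Col arrays rose above the floor region, and the lines did not overlap. The difference was −4.24 (SE 0.23, adjusted p 0.0229, limma), at least 6.30-fold lower in M6PR.

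AT5G33370 had the same pattern. Salted Col read 6.51 and 6.04, salted M6PR 2.15 and 2.45, and every unsalted array 2.15. Its difference was −3.98 (SE 0.19, adjusted p 0.0172, limma), at least 4.86-fold lower in M6PR. AT1G17830 read 5.13 and 5.11 in salted Col and 2.83 and 2.66 in salted M6PR, with 2.21 to 2.60 without salt. The 4 unsalted arrays and both salted M6PR arrays lay together below background. The difference was −2.38 (SE 0.11, adjusted p 0.0172, limma), at least 2.18-fold.

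The 3 genes called higher in M6PR were also higher there without salt. AT1G78450 read 6.74 and 6.58 in salted M6PR and 3.85 and 3.97 in salted Col, against 7.08 and 7.27 in M6PR and 5.60 and 5.28 in Col without salt. Both M6PR groups lay above both Col groups. Its difference was 2.75 with salt (SE 0.14, adjusted p 0.0205, limma), at least 6.32-fold, and 1.74 without (adjusted p 0.0105). AT3G19850 read 8.56 and 8.53 in salted M6PR and 6.17 and 6.48 in salted Col, against 8.94 and 8.95 in M6PR and 7.70 and 7.81 in Col without salt. Salted M6PR was also above unsalted Col. Its difference was 2.22 with salt (SE 0.11, adjusted p 0.0200, 4.66-fold) and 1.19 without (adjusted p 0.0136). AT5G37710 was the one of the 3 with the wider gap in unsalted plants. It read 6.44 and 6.26 against 4.43 and 4.45 with salt, and 7.19 and 6.92 against 4.07 and 4.18 without. Its difference was 1.91 with salt (SE 0.12, adjusted p 0.0342, 3.76-fold) and 2.93 without (adjusted p 0.00377). The difference between the lines at 100 mM minus that at 0 mM (the interaction) passed in 330 probe sets, 1.45% of those tested, but not for any of these 3 genes (adjusted p 0.102, 0.0682 and 0.0750).

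**Figure D1:**
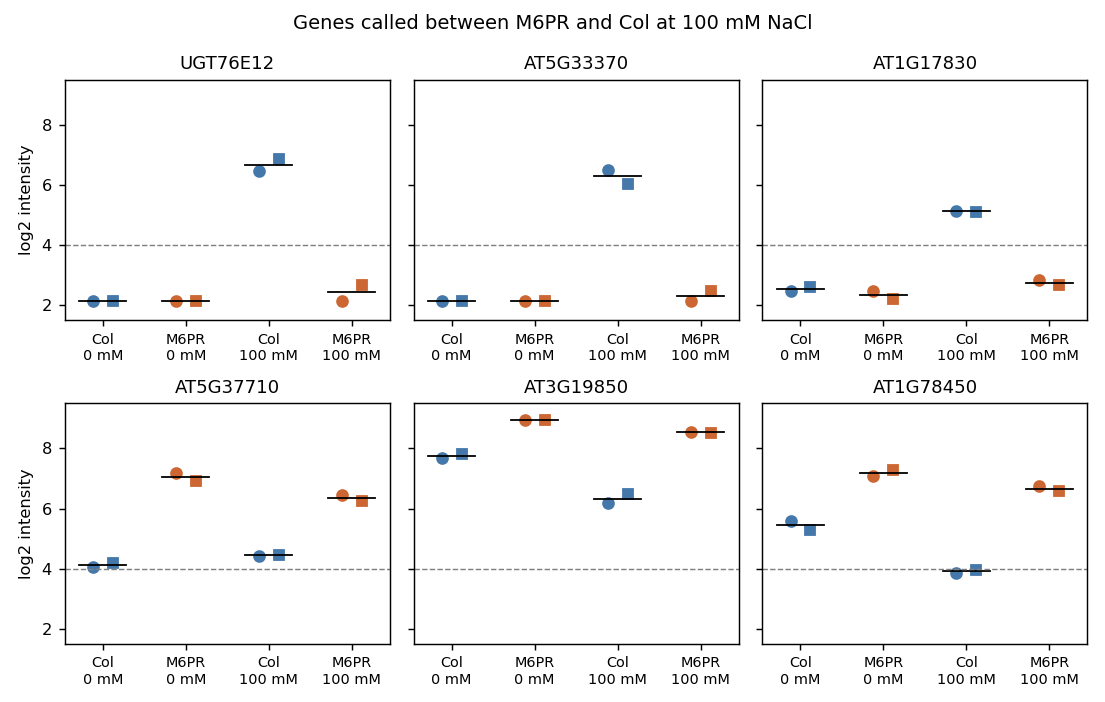
Log2 intensity (vertical axis) of the 6 genes called between salted M6PR and salted Col, on each of the 8 arrays, with circles for replicate 1, squares for replicate 2, blue for Col, orange for M6PR and a short line at each group mean. The dashed line marks the background level of log2 4: in the top row only the salted Col arrays (5.11 to 6.86) lie above it, and in the bottom row M6PR lies above Col both without and with salt.

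These calls depended on single arrays and on the unsalted groups. For UGT76E12 and AT5G33370 every unsalted array lay at the floor of 2.15. The unsalted groups thus added no measured spread to the shared estimate, and the SEs of these genes may be too small. Without M6PR 100 mM replicate 1 the 3 lower genes kept their calls (adjusted p 0.0293 to 0.0445) and the 3 higher genes missed the threshold (0.0641 to 0.0756), with differences of the same sign. Fitted on the 4 salted arrays alone, none of the 6 passed (adjusted p 0.251 to 0.450), and with the replicate number as a block none did either (0.0913 to 0.119). With a variance for each group AT5G37710 (adjusted p 0.129), AT1G17830 (0.0782) and AT1G78450 (0.120) were not called, and after a further quantile normalization AT5G37710 was not (0.0703).

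Of the 8 called probe sets above background that the annotation ties to several genes or to none, 260126_at is given here with its values because of its height. It read 11.86 and 11.77 in salted M6PR and 9.94 and 10.09 in salted Col, and 11.79 and 11.97 in M6PR and 7.07 and 6.96 in Col without salt. M6PR was at one level in both conditions while Col was lower and differed between them. The difference with salt was 1.80 (adjusted p 0.0229, limma), 3.48-fold. On the other side, 254592_at read 7.71 and 7.74 in salted M6PR against 9.04 and 9.11 in salted Col, 2.56-fold lower (−1.35, adjusted p 0.0172), although without salt M6PR, at 7.26 and 7.15, was above Col, at 6.53 and 6.39. The pattern of 267053_s_at was that of UGT76E12, with 6.35 and 6.72 in salted Col and at most 2.21 on the other 6 arrays (−4.35, adjusted p 0.00655, at least 5.79-fold).

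Many genes with larger differences than those called had salted replicates that lay apart, and they did not pass the test. A second description therefore used the gap between the lines: the lowest array of the higher line minus the highest array of the lower line. Of the 13240 probe sets above background, 3038 (22.9%) had both M6PR arrays above both Col arrays under salt and 3705 (28.0%) had both below. With a gap of more than 1 log2 unit, 138 (1.04%) were higher in M6PR and 261 (1.97%) lower. With all arrays brought to a common median they numbered 195 and 192. Without salt, 3695 of the same probe sets (27.9%) lay wholly above and 5263 (39.8%) wholly below Col in M6PR, and with that gap they gave 1008 (7.61%) higher and 768 (5.80%) lower, where the replicates lay closer together (SD above). The median size of the difference was nearly the same, 0.37 log2 units with salt and 0.359 without. That size grows with the spread between replicates, which was larger with salt. The near-equal medians thus do not show that the lines differed equally.

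The 138 and the 261 are described next on the unsalted arrays, which took no part in choosing them. Of the 138 higher in M6PR under salt, 120 (87.0%) were also higher in M6PR without salt, and 80 (58.0%) were separated by more than 1 log2 unit there too. Among all 13240, 5694 (43.0%) were higher in M6PR without salt. The share of 87.0% depended on single arrays: it was 90.9% of 232 without M6PR 100 mM replicate 1 and 80.6% of 155 without Col 100 mM replicate 1, but 33.6% of 792 without M6PR replicate 2 and 55.4% of 799 without Col replicate 2. With an array left out, the gap is taken to a lone array of that line. Those sets were thus chosen by a looser rule than the 138. The median over the 138 was 8.46 and 8.25 in unsalted M6PR, 7.98 and 7.78 in salted M6PR, 6.45 and 6.31 in unsalted Col, and 5.88 and 6.33 in salted Col. All 4 M6PR arrays lay above all 4 Col arrays.

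Of the 261 lower in M6PR under salt, 109 (41.8%) were lower without salt, against 7508 (56.7%) of all 13240, and 21 (8.05%) were separated by more than 1 log2 unit in the same direction there and 21 in the opposite one. In 141 of them (54.0%) both unsalted groups lay below log2 4, which holds for 2 of the 138 and for 482 (3.64%) of all 13240. In 136 salted M6PR lay below log2 4 (488, or 3.69%, of all), so these passed the background level through salted Col alone. Near the floor the unsalted lines can hardly differ. The share of 41.8% therefore cannot be compared with the 56.7% or with the 87.0% of the 138. The median over the 261 was 7.02 and 6.20 in salted Col, 3.25 and 4.42 in salted M6PR, 3.39 and 3.46 in unsalted M6PR, and 3.37 and 3.27 in unsalted Col. The salted Col arrays alone were high, replicate 1 more than replicate 2, and of the others salted M6PR replicate 2 was the highest.

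Within the 261 the replicates were ordered in one way. Salted M6PR replicate 2 lay above replicate 1 in 225, against 55.6% of all 13240, and salted Col replicate 1 above replicate 2 in 202, against 54.2%. Within the 138 the order was mostly the opposite, with M6PR replicate 2 above replicate 1 in 38 and Col replicate 1 above replicate 2 in 21. The order of the replicates did not enter the choice of the probe sets. What made the replicates differ was not tested. Sets chosen with an array left out follow the looser rule given above. Of the probe sets separated lower, 50.2% of 329 were lower also without salt when M6PR 100 mM replicate 1 was left out, 39.0% of 1448 without M6PR replicate 2, and with a salted Col array left out 46.7% of 433 (replicate 1) or 49.5% of 956 (replicate 2).

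**Figure D2:**
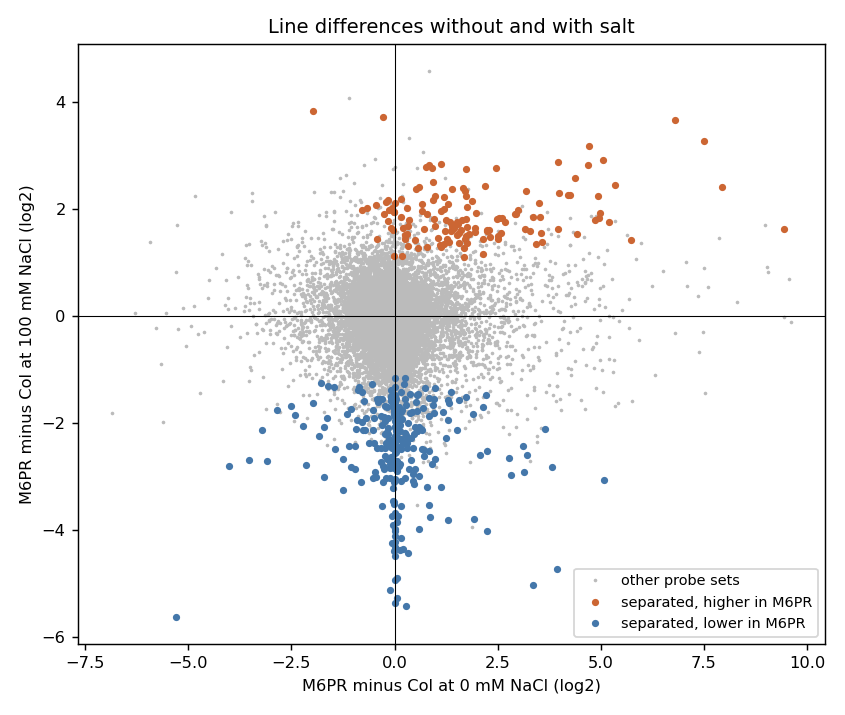
Difference between M6PR and Col (log2) without salt (horizontal axis) and with 100 mM NaCl (vertical axis) for the 13240 probe sets above log2 4 in a salted group. The 138 separated higher in M6PR under salt (orange) lie mostly to the right of 0, with 120 above 0 without salt, while the 261 separated lower (blue) gather around 0 on the horizontal axis, with a median of 0.01. In 141 of the 261 both unsalted groups lay below log2 4, near the floor, where the lines can hardly differ.

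Over all 13240 probe sets the line differences with and without salt were nearly unrelated (Pearson's r 0.0134, Spearman's rho −0.0418), and r was 0.289 without M6PR 100 mM replicate 1 and −0.156 without replicate 2. These values describe probe sets, which are not independent, although the 2 differences share no array.

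Of the genes higher in M6PR, the 14 with the widest gaps were all higher in M6PR without salt as well, 9 of them past the threshold there and 3 past it with salt. Of the 7019 genes above background, 410 (5.84%) were higher in M6PR past the threshold without salt. With salt 0.0855% of the 7019 were called in either direction. The 14 were picked by their gap on the same salted arrays, so that share cannot be compared with theirs. AT4G16563 read 7.58 and 8.54 in salted M6PR and 3.45 and 5.33 in salted Col, and 9.60 and 9.53 against 2.76 on both arrays without salt. The salted Col replicates lay far apart, and the difference of 3.67 (SE 0.71, 12.7-fold at face value) did not pass (adjusted p 0.214, limma). AT1G11380 read 8.72 and 9.28 against 5.05 and 6.59 with salt (3.18, SE 0.63, 9.07-fold, adjusted p 0.220).

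AT5G25240 was level in M6PR, with 9.21 and 8.96 under salt and 8.82 and 8.79 without, and lower in Col, with 5.69 and 6.73 under salt and 4.98 and 4.69 without. Its difference with salt was 2.88 (SE 0.37, 7.34-fold, adjusted p 0.128). AT2G30930 narrowed from both sides: it read 10.88 and 11.08 in M6PR and 6.00 and 6.08 in Col without salt, and 9.77 and 9.94 against 7.40 and 7.85 with it. The line difference was 4.94 without salt (adjusted p 0.00307) and 2.23 with it (SE 0.18, adjusted p 0.0606), and the difference between the 2, −2.71, passed its test (adjusted p 0.0338, limma interaction).

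The other genes of this group with no symbol had line differences under salt of 2.76 (AT3G23880 and AT4G20820), 2.39 (AT5G62280), 2.27 (AT1G67910), 3.26 (AT1G50040) and 2.09 (AT2G41330), none of them past the threshold (adjusted p 0.0901 to 0.236).

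Genes with a symbol and a gap of more than 1 log2 unit numbered 32, and they were grouped by known role after the values had been seen. In M6PR 5 of them were higher and 27 lower. Among all probe sets of 1 gene above background with such a gap, 72 were higher and 135 lower. The split of all separated probe sets moved with the scaling, as given above. Of the 32, 1 (UGT76E12) was called, against 0.0855% of the 7019 genes above background. The 32 were picked by their gap on the same salted arrays that the call tests, so these shares cannot be compared. All 5 higher genes were higher in M6PR without salt as well. GT2, a trihelix DNA-binding protein, read 7.59 and 7.75 in salted M6PR and 6.00 and 6.17 in salted Col, and 8.96 and 8.71 against 6.58 and 6.62 without salt. Every M6PR array lay above every Col array. The difference with salt was 1.58 (SE 0.11, 3.0-fold) and missed the threshold (adjusted p 0.0519, limma), while that without salt, 2.24, passed (adjusted p 0.00575).

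PSY1R, a receptor kinase that takes part in the response to the growth-promoting peptide PSY1, read 7.19 and 7.01 in salted M6PR and 4.77 and 5.23 in salted Col, and 8.02 and 7.72 against 7.19 and 7.23 without salt. Salted Col was the low group, and the other 3 groups lay between 7.01 and 8.02. The difference with salt was 2.1 (SE 0.20, 4.28-fold, adjusted p 0.0741).

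SCPL34, a serine carboxypeptidase-like protein, read 9.39 and 9.95 in salted M6PR and 6.74 and 8.02 in salted Col, and 10.68 and 10.84 against 6.68 and 6.89 without salt. Its M6PR arrays were all above its Col arrays. The difference was 2.29 with salt (4.90-fold, adjusted p 0.231) and 3.98 without (adjusted p 0.0223). XTH33, an enzyme that cuts and rejoins xyloglucan in the cell wall, read 5.59 and 7.96 against 3.74 and 4.18 with salt, and 8.02 and 8.43 against 4.09 and 2.96 without. The salted M6PR replicates lay far apart, and the difference of 2.81 (SE 0.91, at least 6.85-fold) did not pass (adjusted p 0.353). The tetraspanin gene TET5 was the fifth, with a difference of 1.79 (adjusted p 0.231).

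By roles assigned by hand after the values were seen, 7 of the 27 lower genes act in cell division and DNA replication: the mitotic kinase AUR2, FU (a kinase of cytokinesis), the histone chaperone ASF1B, the chromosome protein 3xHMG-box2, the replication protein PSF2, the DNA polymerase delta subunit POLD3 and KINESIN-12B, a motor of the phragmoplast that builds the new cell wall. Their line differences under salt ran from −1.38 to −3.20, a range that their choice by the salted gap helped to set, and none passed the test (adjusted p 0.226 to 0.342).

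3xHMG-box2 read 8.89 and 8.10 in salted Col, 3.97 and 6.63 in salted M6PR, 4.25 and 4.32 in unsalted Col and 4.61 and 5.54 in unsalted M6PR. Salted Col was high on both arrays, and salted M6PR replicate 1 was the lowest of the 8. Its difference was −3.20 (SE 0.99, 9.16-fold at face value, adjusted p 0.342, limma).

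AUR2 read 6.78 and 5.69 in salted Col, 2.94 and 4.0 in salted M6PR and 2.84 to 3.56 without salt. Only salted Col was clearly above background. The difference was −2.77 (SE 0.57, at least 4.72-fold, adjusted p 0.226). ASF1B, which hands histones to newly made DNA, read 6.98 and 6.72 in salted Col, 3.55 and 5.20 in salted M6PR and 3.63 to 4.54 without salt. POLD3 was the one of the 7 with close salted M6PR replicates, at 4.54 and 4.50, against 6.19 and 5.61 in salted Col, and its difference of −1.38 did not pass either (adjusted p 0.238).

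A list of cell cycle genes had 7 measured members, 5 of them above background. In 4 of these both M6PR arrays lay below both Col arrays under salt and in 1 above, while 26.5% of the 7019 genes above background were lower in this way and 24.0% higher. The 4 were AUR2, its relative AUR1 (3.52 and 6.03 against 7.88 and 6.62, −2.47, adjusted p 0.423), the spindle checkpoint protein BUB3.1 (6.57 and 7.31 against 8.70 and 7.62, −1.22, adjusted p 0.381) and the replication helicase subunit PRL (4.86 and 7.42 against 8.0 and 7.67, −1.69, adjusted p 0.555). In each of them M6PR replicate 1 was the lowest of the salted arrays, and for PRL replicate 2 lay close to Col. The one on the other side was SIM, an inhibitor of cell division in developing leaf hairs, at 5.83 and 5.99 against 5.75 and 5.74 (0.17). None of these 5 passed the test. BUB3.2, 1 of the 2 members below background, was called (−0.45, adjusted p 0.00744, limma), with 2.58 and 2.62 in salted Col and 2.15 on the other 6 arrays.

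Another 8 of the 27 were assigned to stress and defence, with line differences under salt from −1.27 to −4.35. None passed (adjusted p 0.0978 to 0.369). WRKY53, a transcription factor of defence and leaf ageing, was the closest to the threshold. It read 8.33 and 8.65 in salted Col, 6.46 and 6.93 in salted M6PR, 5.05 and 4.95 in unsalted Col and 5.20 and 5.12 in unsalted M6PR. Both lines were above their unsalted level, Col further. The difference was −1.80 (SE 0.20, 3.48-fold, adjusted p 0.0978, limma).

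GRX480, a glutaredoxin of salicylic acid signalling, did not share the intermediate level. It read 8.70 and 7.62 in salted Col, 5.93 and 5.97 in salted M6PR and 5.22 to 6.09 on the unsalted arrays. Salted M6PR stayed within the range of the unsalted plants. The difference was −2.21 (SE 0.43, 4.63-fold, adjusted p 0.212).

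CML23 and CML37, calmodulin-like proteins that bind calcium, were likewise highest in salted Col. CML23 read 7.61 and 6.79 in salted Col, 5.11 and 5.28 in salted M6PR and 4.07 to 4.72 without salt (−2.00, adjusted p 0.175). CML37 read 4.46 and 4.01 in salted Col and 2.22 and 2.72 in salted M6PR, with 2.15 to 2.53 without salt (−1.77, adjusted p 0.151). ATG8H, a protein of the autophagosome, had the smallest difference of the 8, with 7.52 and 7.24 against 6.18 and 6.04 (−1.27, SE 0.18, 2.41-fold, adjusted p 0.139).

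PYK10, a beta-glucosidase of the endoplasmic reticulum bodies best known from roots and seedlings, had the largest difference of the 8 and the largest spread. It read 10.28 and 7.51 in salted Col, 2.83 and 6.27 in salted M6PR and 2.15 to 2.82 on the unsalted arrays. The replicates of either salted line lay far apart, and the difference of −4.35 (SE 1.51, 20.4-fold at face value) did not pass (adjusted p 0.369). The summed log2 level of the 3 measured root markers was 6.69 and 7.07 in salted M6PR and 6.47 on both salted Col arrays. Each of the 3 lay below background, near the floor, so the sums carry little information. Whether root material had a part was not tested.

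The thaumatin-like protein gene ATLP-1 read 9.20 and 7.92 in salted Col and 4.17 and 6.80 in salted M6PR (−3.08, 8.45-fold), and the drought-induced gene DI21 8.91 and 7.89 against 5.21 and 6.81 (−2.39). In both, salted M6PR replicate 2 lay nearer to Col than replicate 1 did.

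Of the other 12 lower genes, 4 act in the cell wall. GH9B13, a glycosyl hydrolase of the family of cellulases, read 7.58 and 5.83 in salted Col, 2.28 and 2.90 in salted M6PR and 2.28 to 2.3 without salt. It was above background in salted Col alone (−4.12, SE 0.62, at least 6.52-fold, adjusted p 0.159). EXPA15, an expansin that loosens walls, was lower in M6PR in both conditions, at 4.97 and 5.03 against 7.47 and 6.66 with salt and 3.35 and 3.80 against 5.77 and 5.81 without. Its difference passed without salt (−2.22, adjusted p 0.0305) but not with it (−2.07, SE 0.31, 4.19-fold, adjusted p 0.159). CCR2, a cinnamoyl-CoA reductase of lignin synthesis, read 4.95 and 3.81 against 2.46 on both M6PR arrays (−1.92), and the plantacyanin gene ARPN 9.77 and 8.59 against 6.57 and 7.53 (−2.13).

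A pair of transcription factors of epidermal cell fate were above background only in salted Col. SPCH, which starts the lineage of stomata, read 4.40 and 4.02 in salted Col, 2.21 and 2.54 in salted M6PR and 2.18 to 2.21 without salt (−1.83, SE 0.17, at least 1.16-fold, adjusted p 0.0741). ATMYC1, a factor of leaf hair and root hair fate, read 5.69 and 4.40 in salted Col and 2.15 and 2.39 in salted M6PR (−2.78, at least 2.06-fold, adjusted p 0.175). Of the later markers of the stomatal lineage, FMA (FAMA) did not share this. It read 5.76 and 5.92 in salted M6PR and 5.59 and 5.90 in salted Col. MUTE was at the floor in M6PR and at 2.3 and 2.15 in Col, too low to show a difference either way. The guard cell transporter CHX20 was higher in M6PR, at 7.54 and 6.31 against 5.13 and 6.02 (1.35, adjusted p 0.392). The summed log2 level of these 4 guard cell markers was 17.67 and 16.93 in salted M6PR and 17.42 and 18.1 in salted Col. For the 3 measured leaf hair markers (SIM, TRY and GIS) it was 17.78 and 13.46 against 14.34 and 13.9. Their part in the result was not tested.

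WES1, an enzyme that joins auxin or salicylic acid to amino acids, read 4.72 and 4.23 in salted Col and 2.16 and 2.17 in salted M6PR, with 2.17 to 2.24 without salt. As with UGT76E12, the other 6 arrays were together near the floor. The line difference under salt narrowly missed the threshold (−2.31, SE 0.17, at least 1.39-fold, adjusted p 0.0533, limma), and the difference from that without salt passed it (−2.35, adjusted p 0.0378).

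RHF1A, a RING-type ubiquitin ligase, was lower in M6PR with or without salt, at 4.34 and 4.40 against 5.57 and 5.79 and at 4.91 and 5.31 against 6.65 and 6.82. All M6PR arrays lay below all Col arrays. Only the difference without salt passed the test (−1.62, adjusted p 0.0161, against −1.31, SE 0.17, 2.48-fold, adjusted p 0.127 with salt). The remaining 3, VPS2.2 (a subunit of the membrane-sorting complex ESCRT-III), the carboxylesterase gene CXE18 and ZCF125, had differences of −1.31 to −2.51 together with RHF1A and did not pass. In 24 of the 27 lower genes salted M6PR replicate 2 lay above replicate 1, in 13 both unsalted groups lay below log2 4, and in 13 salted M6PR did.

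**Figure D3:**
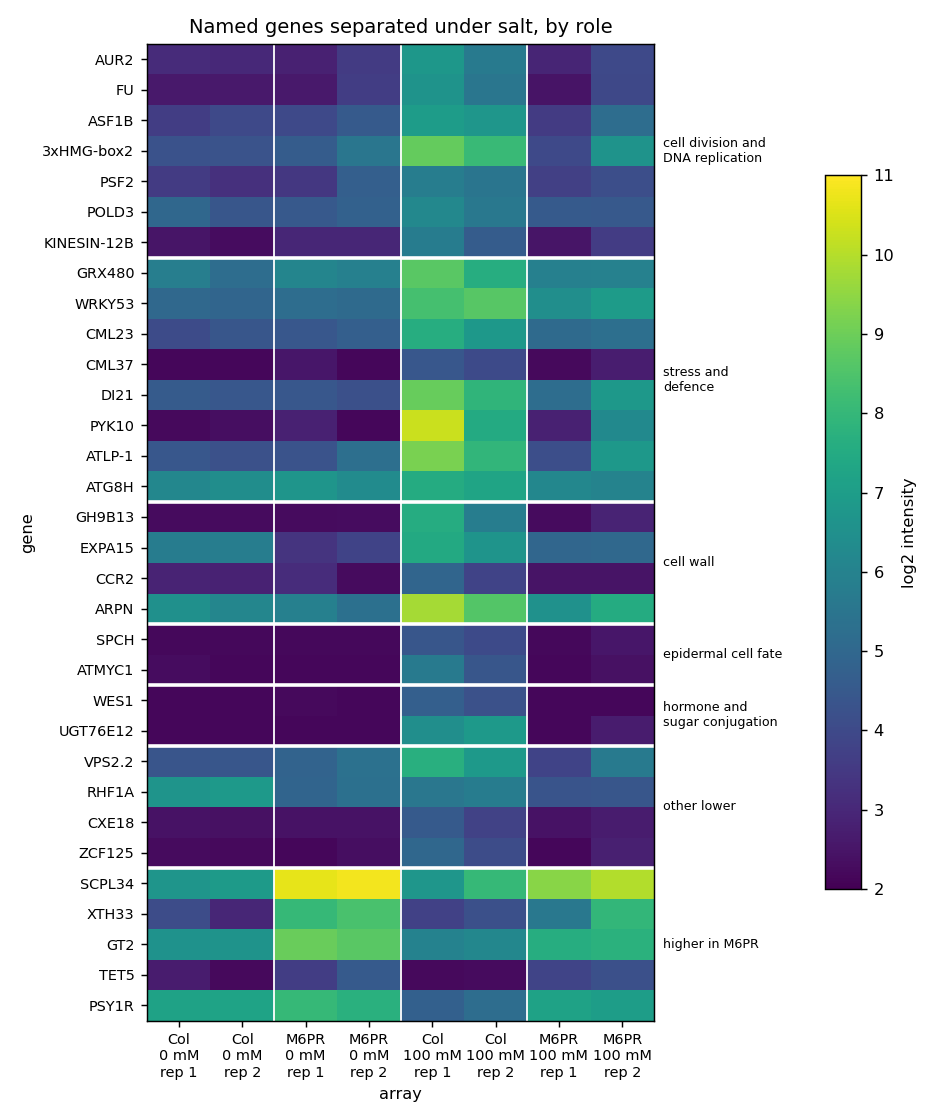
Log2 intensity (colour, from 2 in dark to 11 in yellow) of the 32 genes with a symbol and a gap of more than 1 log2 unit between the lines under salt, by role (rows) and array (columns). In the 27 rows above the last white line the salted Col columns are the bright ones in most rows and salted M6PR replicate 2 is brighter than replicate 1 in 24, and in the last 5 rows M6PR is brighter than Col at the same salt level.

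Among the 14 genes of 1 probe set with the widest gaps on the lower side, 12 had both unsalted groups below log2 4 and 3 were called. Over all, 3.64% of the 13240 probe sets had both unsalted groups below it, and 0.0855% of the 7019 genes were called. The 14 were picked by their gap on the same salted arrays that the call and the background level use, so these shares cannot be compared. AT2G33850 read 8.63 and 8.43 in salted Col, 2.44 and 4.74 in salted M6PR and 2.33 to 2.38 without salt. The Col replicates were close and those of M6PR far apart, and the difference of −4.94 (SE 0.78, at least 23.1-fold) did not pass (adjusted p 0.173, limma). AT4G29030 read 9.88 and 8.52 in salted Col and 2.78 and 5.35 in salted M6PR (−5.13, SE 0.98, 35.0-fold at face value, adjusted p 0.211). Without salt it lay between 2.68 and 2.81.

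AT1G73620 read 7.61 and 6.29 in salted Col and 2.15 and 2.75 in salted M6PR, with 2.15 on every unsalted array (−4.50, at least 7.74-fold, adjusted p 0.0977). AT5G62210 was one of the 2 exceptions in being present without salt. It read 7.69 and 7.08 in Col and 4.56 and 4.78 in M6PR with salt, and 6.42 and 6.18 against 2.85 and 3.55 without, so M6PR was lower in both conditions (−2.72, 6.57-fold, adjusted p 0.127 with salt and −3.10, adjusted p 0.0184 without). The other exception, AT3G01830, read 7.36 and 6.70 in salted Col and 2.51 and 3.94 in salted M6PR, with 6.08 and 4.59 in M6PR and 4.13 and 3.94 in Col without salt (−3.81, adjusted p 0.212).

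Of the 22 gene lists, 14 had at least 3 members above background under salt. Their members are described by how many had both arrays of one line above both of the other, beside 24.0% higher and 26.5% lower among the 7019 genes, whose median difference was −0.03. With all arrays brought to a common median, the shares were 38.2% and 15.9% and the median 0.17. The lists were chosen with earlier results of these data known, and no test was made of a list.

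Of the photosynthesis list, all 12 measured genes had a difference above 0, with 9 higher without overlap and 0 lower (11 after centring and 8 after a further quantile normalization, with 0 lower in either). The differences were small, with a median of 0.16 against −0.04 without salt. NdhL, of the chloroplast NAD(P)H dehydrogenase complex, had the largest, at 11.22 and 10.59 in salted M6PR against 9.88 and 10.27 in salted Col (0.83, SE 0.26, adjusted p 0.342). The antenna protein LHCB4.3 read 12.06 and 11.80 against 11.40 and 11.05 (0.71, SE 0.16, adjusted p 0.243), and 12.59 and 12.52 against 13.02 and 12.89 without salt. Salted Col was thus the lowest group for both genes. No member passed the test.

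Of the 6 genes of reactive oxygen scavenging, 4 were higher without overlap and 1 lower (median 0.37). TAPX, the ascorbate peroxidase of the thylakoid, which removes hydrogen peroxide beside the photosystems, had the closest replicates. It read 10.45 and 10.42 in salted M6PR and 9.89 and 9.86 in salted Col, and 10.85 and 10.94 against 10.94 and 10.73 without salt. The lines overlapped without salt and were 0.56 apart with it (SE 0.08, 1.48-fold), which did not pass (adjusted p 0.139, limma). Glutathione reductase (GR) read 11.66 and 11.10 against 10.62 and 10.83 (0.65, adjusted p 0.353). The lower one was STZ, a zinc finger factor of stress signalling, at 10.00 and 11.07 against 11.20 and 11.84 (−0.98, adjusted p 0.440).

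Of the list of abscisic acid and dehydration genes 6 members were above background, 1 higher and 2 lower without overlap (median −0.62). Salt-responsive members were high in both salted lines. AT3G02480 read 10.14 and 10.76 in salted Col and 7.49 and 8.83 in salted M6PR, with 2.50 to 3.30 without salt. Both salted lines were far above their unsalted level and M6PR less far (−2.29, SE 0.57, 4.90-fold, adjusted p 0.276). LEA4-5, a late embryogenesis abundant protein, read 7.42 and 8.55 in salted Col and 5.58 and 6.75 in salted M6PR (−1.82, adjusted p 0.337). The cold- and drought-regulated gene COR15A was on the other side by a little, at 13.45 and 13.28 against 13.01 and 13.12 (0.30), and COR15B and COR47 overlapped.

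Of the 20 UDP-glycosyltransferases above background, 9 were higher and 3 lower without overlap (median 0.32). UGT76E12 was the one called, and the other lower ones were UGT78D1, a flavonol rhamnosyltransferase (7.60 and 7.14 against 9.03 and 8.32, −1.30, adjusted p 0.266), and UGT87A2 (7.81 and 8.38 against 8.55 and 9.81, −1.09). The largest of the higher ones was UGT72E1, which glucosylates lignin precursors, at 8.66 and 7.40 against 5.20 and 6.83 (2.01, adjusted p 0.371). UGT85A4 had closer replicates, at 6.44 and 6.04 against 4.88 and 5.34 (1.14, adjusted p 0.253). Of the flavonoid list 4 genes were above background, with 0 higher, 1 (UGT78D1) lower and a median of −0.06 (0.13 after centring), where the median without salt was −3.05. DFR, which makes the precursors of anthocyanins, read 11.63 and 10.37 in salted M6PR and 11.04 and 10.68 in salted Col, and 11.05 and 9.59 against 12.06 and 12.13 without salt.

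Of the jasmonate list 3 of 6 members were higher and 1 lower without overlap (median 0.89). The defensin genes PDF1.2 (10.40 and 6.99 against 6.63 and 6.43) and PDF1.2b (9.58 and 6.31 against 6.05 and 5.53) rested on salted M6PR replicate 1, with replicate 2 within 1 log2 unit of Col. Their M6PR replicates lay apart in the same order without salt, at 12.45 and 8.32 (PDF1.2) and 11.33 and 7.66 (PDF1.2b). Unsalted Col read 11.41 and 11.02, and 10.64 and 10.48. Both genes varied together across the arrays. JMT, which methylates jasmonate, read 8.27 and 6.82 against 5.43 and 6.13 (1.76, adjusted p 0.372). OPCL1, an enzyme that activates precursors of jasmonate, was lower with close replicates, at 9.92 and 9.76 against 10.88 and 10.90 (−1.05, SE 0.25, adjusted p 0.263). Of the salicylic acid list, the 2 lower ones of 3 were GRX480 and WRKY53, and SAG101 was level, at 5.45 and 5.48 against 5.38 and 5.48. Of the 5 WRKY factors 1 was higher and 2 lower (median −0.72). WRKY22, which acts in defence signalling, read 4.42 and 6.19 against 6.86 and 6.58 (−1.41, adjusted p 0.436).

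Of the 7 genes of sugar shortage and darkness, all had a difference above 0, but 1 was higher without overlap (6 after centring), and the median was 0.57 where without salt it was 3.31. AT3G15630 read 9.43 and 10.47 in salted M6PR and 9.47 and 9.04 in salted Col, and 12.16 and 12.01 against 2.45 and 2.57 without salt. EXO, a wall protein of growth control, read 11.02 and 12.38 against 10.33 and 11.29 with salt and 12.46 and 13.02 against 5.10 and 5.37 without. The wide gap between the lines without salt was thus nearly closed with it.

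The 16 wall loosening genes above background went both ways, with 4 higher and 3 lower without overlap (median 0.51; 6 and 2 after centring). The higher ones were XTH33, EXPA9 (1.71), EXPA16 (1.43) and EXPB1 (0.99), and the lower ones EXPA15, EXPB3 (−0.71) and EXLB1 (−0.31), none past the threshold. The annotation gave no gene for 8730 probe sets, so a gene without a match may still be on the array. Of the loci chosen by name whatever their values, AT5G51970 alone was tied to a probe set of its own. It read 10.91 and 10.66 in salted M6PR, 9.88 and 10.12 in salted Col, 10.91 and 10.78 in unsalted M6PR and 11.06 and 10.90 in unsalted Col. Salted Col was the low group, and the difference of 0.78 (SE 0.14, 1.72-fold) did not pass (adjusted p 0.199, limma). The phosphomannomutase gene PMM overlapped between the lines (−0.29).

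Of the remaining lists, touch and calcium signalling had 1 higher and 2 lower of 6 members (the lower ones CML23 and CML37), leaf senescence 1 and 0 of 4, and glucosinolate 0 and 1 of 4, the lower one being the transporter gene GTR1 at 10.32 and 10.97 against 11.16 and 11.75 (−0.81, adjusted p 0.417). The other 8 lists (sodium and potassium transport, compatible solutes and polyols, cuticle and wax, heat shock, auxin, ethylene, circadian clock, and zinc finger and NAC factors) had at most 2 members above background and 0 called.

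**Figure D4:**
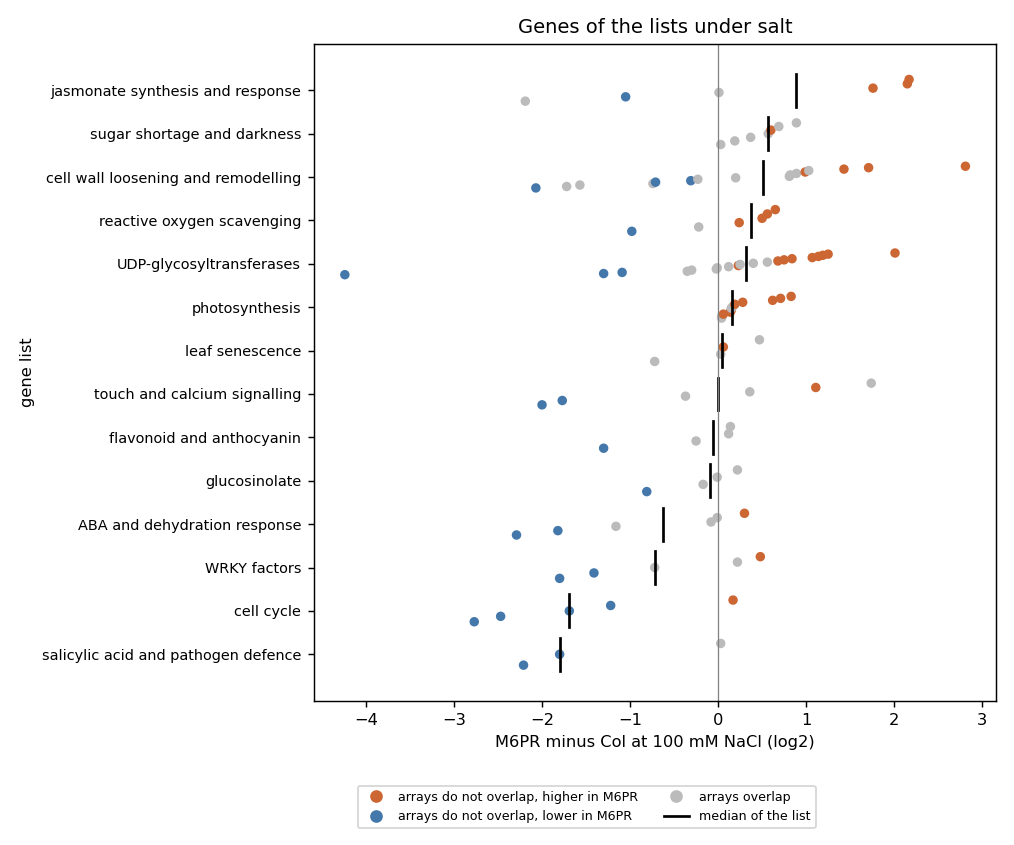
Difference between salted M6PR and salted Col (log2, horizontal axis) of each gene above background in the 14 lists with at least 3 such genes (vertical axis), coloured by whether the 2 arrays of each line overlap, with a bar at the median. The medians run from −1.80 (salicylic acid and pathogen defence) and −1.69 (cell cycle) to 0.89 (jasmonate), and photosynthesis has 9 of 12 genes higher and 0 lower.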

How the data were processed

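Leaf RNA was labelled and read on 8 arrays, 2 for each line and salt level. The deposited values are log2 intensities made by the authors, and per the submitters' processing notes the tools were GCOS and RMA. The background model and the set of arrays normalized together are not given in the sources used here. Groups were taken from the titles. Gene names came from the platform's table: 13513 probe sets had 1 gene, 503 several and 8730 none, and 13436 were matched to RefSeq TAIR10.1, which supplied symbols and no coordinates. Where several probe sets report a gene, that with the highest mean stands for it.

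All 8 arrays were fitted together, with 4 group means, in limma 3.58.1 in R 4.3.3 (empirical Bayes, 4 residual degrees of freedom), with Benjamini-Hochberg adjustment over 22746 probe sets, and the fit was tested on simulated data. There 3 of 73 calls were false with an equal spread. With a spread taken for each probe set and group from its 2 arrays, 361 of 484 were false. All 4 groups shared 1 estimate of the spread. Replicates came from separate pots, whose leaves were pooled.

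Genes were named if called above log2 4, if among the 14 widest gaps per direction, if among up to 3 list members per direction with a gap of at least 0.5, or if chosen by name. A rule for genes with a symbol and a gap over 1 was added after the values were seen, as was the grouping by role, and other list members are given for context. All members and lists were chosen with earlier results of these data known. The 22 gene lists held 1000 matched genes, 166 of them tied to a probe set of 1 gene, and 7 marker lists were used beside them.

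Same-numbered salted arrays of the lines deviated against each other (correlation of deviations −0.165), those of M6PR without and with salt together (0.516), and the other 4 pairs of groups lay between −0.166 and 0.0894. Not every pair deviated together, so replicate numbers were not used as pairs. Alternatives covered the arrays in the fit, the filter on dim probe sets, scaling, the prior, the replicate block and single arrays left out. No pseudocount was needed, the values being logarithms.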

Additional observations from a re-analysis of the deposited data

Results flagged for a closer look

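The line difference departed from that without salt by the interaction test (limma, all 8 arrays, adjusted p under 0.05) in 5 of the 70 genes picked by the naming rule. Of all 22746 probe sets, 330 (1.45%) passed it. The naming rule rests mostly on the call or gap under salt, and the salted difference is part of the interaction. The shares therefore cannot be compared. For UGT76E12 the difference at 100 mM minus that at 0 mM was −4.24 (adjusted p 0.0255), for AT5G33370 −3.98 (0.0179), for AT1G17830 −2.18 (0.0219) and for WES1 −2.35 (0.0378). In these 4 the unsalted lines lay close together below the background level. For AT2G30930 it was −2.71 (0.0338), where M6PR was above Col in both conditions by an amount that was larger without salt.

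Members of the lists outside that rule passed it too: AT3G15630 (−8.88, adjusted p 0.0148), AT3G15450 (−6.53, 0.0484) and MCCA (−2.0, 0.0371) of the sugar shortage list, STZ (−5.82, 0.0410), EXLA1 (−8.24, 0.0288), CML38 (−5.27, 0.0414), BUB3.2 (−0.45, 0.0107, below background), and, with the opposite sign, UGT84A4 (1.91, 0.0220) and UGT72B3 (2.71, 0.0487), both below background under salt. Of the called probe sets above background with several genes or none, all 8 passed: 260126_at (−3.06), 254592_at (−2.1), 267053_s_at (−4.35), 254074_at (−3.7), 253788_at (−1.97), 248272_at (−0.31), 246441_at (0.58) and 262412_at (1.34), with adjusted p from 0.000972 to 0.0382. These 8 had been picked by their call on the salted difference, which is part of the interaction.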

How the results depend on the processing

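The counts of calls depended on the processing. Against 31 calls between the salted lines (8 higher, 23 lower, 14 above log2 4) and 330 of the interaction, a fit on the 4 salted arrays gave 0 (0 higher, 0 lower, 0 above log2 4; 1375 at an unadjusted p under 0.05) and a minimum change of 2-fold 0 (272 unadjusted) and 3. Keeping only probe sets above log2 4 gave 164 (66, 98, 164) and 1362, and leaving out the dimmest 25% gave 70 (21, 49, 64) and 1025. Giving all arrays the same median, which put the median difference over all probe sets at 0.20, gave 139 (77, 62, 130) and 1022. A further quantile normalization gave 14 lower calls. The trend prior moved no count by over 1.5 times.

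The replicate block gave 3 calls (0, 3, 0) and 53, and the crossed block, added after seeing the data because same-numbered salted arrays opposed each other, 4 (0, 4, 1) and 62. A variance for each group, also added, gave 20 (4, 16, 7), and leaving out replicate 1 of both salted groups 587 (199, 388, 210) and 900. Without single salted arrays the calls ranged from 107 to 1212 (55 to 680 higher, 28 to 784 lower, 29 to 697 above log2 4) and the interaction from 447 to 2234, the lone array being assumed to vary like the other groups.

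Separated probe sets ranged from 155 to 799 higher and 329 to 1448 lower without single arrays, of which 33.6% to 90.9% and 39.0% to 50.2% had the same direction without salt, and r from −0.156 to 0.289. Without replicate 1 of both salted groups they numbered 278 and 571, with 55.5% of the latter lower without salt and an r of 0.301. Leaving out an array loosens the rule of the gap, so those sets are not chosen like the main ones. With a background level of log2 6 there were 162 lower. The causes were not tested. Signal near the floor limits what a lower value can show.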
